A study of Mus musculus with 4 samples.

Results

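Histones are the proteins around which DNA is wound in the nucleus, and the messenger RNAs of 67 histone genes were examined in mouse quadriceps, out of 18091 rows in the table. The members were the rows whose symbol, in the older nomenclature of the array, began with Hist and a digit, H2af, H3f3 or H1f. They comprised 56 genes named Hist and a digit, called clustered genes here, and 11 genes with the other prefixes, called variant histones here. The split is by name only, so the 56 include Hist4h4, on chromosome 6, and Hist3h2bb, now named as the pseudogene H2bu1-ps. Males of the CD-1 strain aged 5 weeks were compared: 2 Lin28a transgenic (Tg) and 2 wild type (WT), with 1 Illumina Ref-8 array each. The Lin28a protein binds RNA and holds back maturation of let-7 microRNAs, and the question is whether histone transcripts differ with the transgene. Neither the transgene's promoter nor the number of founder lines is given in the sources used here. The labels only number the samples, so p-values measure their spread, which may be technical, and having 4 arrays limits the precision.

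The core histones H2A, H2B, H3 and H4 form the nucleosome, and the linker histone H1 binds the DNA between nucleosomes. Clustered genes are mostly transcribed in S phase, when new DNA must be packaged, and most of their mRNAs end in a stem-loop in place of a poly(A) tail, although some also give polyadenylated transcripts in differentiated cells. Most variant histones are made throughout the cell cycle from polyadenylated mRNAs, and some replace the clustered forms in cells that no longer divide, such as muscle fibres. Whether the labelling captured mRNAs without a poly(A) tail was not examined here. The values of clustered genes may therefore not report their S phase mRNAs. The coding sequences of clustered genes of 1 type are nearly identical, so a probe may read several copies. The values of these members are uncertain as to which copy they report. The intensities of different probes cannot be set against each other, and each gene is compared only with itself across arrays.

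The promoters of 4 members are shown. The first 3 belong to clustered H2A genes that read higher in Tg muscle, the last to a variant that read lower. The last differs from the others in class as well as in sign, so their letters cannot be linked to direction. They were copied from the RefSeq promoter table (build GRCm38.p6), which held 59 of the 67 members and covers 250 bases before to 50 bases after each gene's start. Hist1h2ao was placed through the gene ID of the deposited annotation, which RefSeq now names H2ac24. RefSeq lists the old symbol Hist1h2ao under H2ac23 instead, so which of the 2 genes the row and its fold belong to is uncertain. Hist1h2ad is now H2ac7 and Hist1h2an is H2ac22. Capitals mark, on either strand, the CCAAT box, the TATA box letters TATAAA, the octamer ATTTGCAT and the variant ATTTGAAT of the octamer, which was added after the promoters had been read.
Hist1h2ao promoter, chr13:21833426-21833725, minus strand: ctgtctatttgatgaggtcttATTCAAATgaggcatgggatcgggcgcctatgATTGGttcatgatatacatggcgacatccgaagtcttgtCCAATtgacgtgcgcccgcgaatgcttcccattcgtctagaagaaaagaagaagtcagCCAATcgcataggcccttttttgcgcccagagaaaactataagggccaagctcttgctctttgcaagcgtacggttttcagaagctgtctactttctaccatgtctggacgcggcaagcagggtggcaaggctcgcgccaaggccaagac
Hist1h2ad promoter, chr13:23574131-23574430, plus strand: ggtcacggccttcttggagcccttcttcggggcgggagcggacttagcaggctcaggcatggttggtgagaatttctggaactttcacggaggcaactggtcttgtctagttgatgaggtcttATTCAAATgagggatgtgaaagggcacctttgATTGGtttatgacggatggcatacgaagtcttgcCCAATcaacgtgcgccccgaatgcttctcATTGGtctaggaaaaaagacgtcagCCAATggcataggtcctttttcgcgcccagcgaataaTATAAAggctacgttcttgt
Hist1h2an promoter, chr13:21787199-21787498, minus strand: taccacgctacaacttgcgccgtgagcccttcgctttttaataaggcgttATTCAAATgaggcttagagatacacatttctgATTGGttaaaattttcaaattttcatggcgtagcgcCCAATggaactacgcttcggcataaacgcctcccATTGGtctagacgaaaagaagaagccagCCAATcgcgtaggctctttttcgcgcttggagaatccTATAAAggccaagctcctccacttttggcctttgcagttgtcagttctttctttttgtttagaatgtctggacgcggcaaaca
H3f3a promoter, chr1:180813556-180813855, minus strand: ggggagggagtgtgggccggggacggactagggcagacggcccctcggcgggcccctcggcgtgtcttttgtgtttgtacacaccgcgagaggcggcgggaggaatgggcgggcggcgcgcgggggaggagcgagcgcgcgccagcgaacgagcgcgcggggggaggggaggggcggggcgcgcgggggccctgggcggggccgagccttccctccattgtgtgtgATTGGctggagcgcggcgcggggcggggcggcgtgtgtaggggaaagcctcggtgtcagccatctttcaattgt

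All 15 promoters of clustered H2A genes held CCAAT, as did all 12 of clustered H2B, all 7 of clustered H3 and all 6 of clustered H1 genes, 2 of 10 of clustered H4 genes and 5 of 9 of variants, against 37.4% of 32851 promoters of the same length. TATAAA stood in 11 of 15 H2A, 7 of 12 H2B, 6 of 10 H4, 4 of 6 H1, 2 of 7 H3 and 1 of 9 variant promoters (13.6% of all). It was counted anywhere in the 300 bases. In Hist1h2ad it lies at position 31 after the annotated start, against -33 in Hist1h2an. The octamer ATTTGCAT, known as a binding site of the Oct1 factor in H2B promoters, stood in 7 of 15 H2A, 6 of 12 H2B and 1 of 9 variant promoters and in 0 of the H1, H3 and H4 promoters (1.74% of all). ATTTGAAT stood in 5 of 15 H2A and 5 of 12 H2B promoters and in 0 of the other types (1.25% of all). In 6 H2A genes of the Hist1 cluster both Tg arrays lay above both WT arrays. Of these 6, only 3 held ATTTGAAT, the same 3 that are printed, and 1 held ATTTGCAT. H2A and H2B genes that start back to back share part of these letters, so their counts are not separate. The median GC content was 45.2% in 50 promoters of clustered genes and 71.3% in 9 of variants, against 52.7% in all.

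The Lin28a probe lay below background on all 4 arrays, at 86.4 and 88.0 in Tg and 82.9 and 82.6 in WT, so it did not check the labels. All 6 muscle fibre markers were above background on every array. Across genes, Pearson's r of log2 intensity was 0.9897 within Tg and 0.9786 within WT. WT replicate 1 stood apart through some liver transcripts. Hepatocyte markers, 2 of 8 tested, summed to 12917 there and to between 678.2 and 729.6 on the other arrays. Only Apoa1, Apoa2, Ttr and Mup3 were high on that array, at 1746 to 5506, and Serpina1a read 94.1. Alb, the defining hepatocyte marker, was below background on all 4 arrays, as were Fabp1 and Apoh. In bulk tissue, fewer cells of a type and less RNA per cell cannot be told apart.

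Testing required an intensity above the background threshold of 90.0 on 2 or more of the 4 arrays. Of the 67 members 41 met this, and 33 were above it on all 4. The tested members were 35 of 56 clustered genes (2 of 6 H1, 10 of 15 H2A, 10 of 15 H2B, 5 of 9 H3 and 8 of 11 H4) and 6 of 11 variants. Of the other 26 members, 20 were at or below the threshold on all 4 arrays and 6 above it on 1, with intensities from 74.6 to 92.2. They included the testis linker histone gene Hist1h1t, the testis genes Hist1h2aa and Hist1h2ba, the oocyte linker gene H1foo and all 3 genes of the Hist3 cluster. By their mean over the 4 arrays, H1fx, a linker variant gene, at 89.0 and Hist1h2ab at 88.2 were the highest of the members not tested. Hist1h2bb at 89.1 and H1f0, the linker variant gene of resting cells, at 89.3 were the lowest of those tested, being above the threshold on 2 arrays each.

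No histone gene passed the test between Tg and WT. With limma, 0 of 41 members had an adjusted p under 0.05 over the 7907 genes tested (0% of all genes), the smallest being 0.482. At an unadjusted p under 0.05, 4 members were higher in Tg (5.05% of all genes) and 2 lower (3.81%). Both Tg arrays lay above both WT arrays for 9 members (21.6% of all genes) and below them for 7 (16.8%). Out of 41 members tested, both counts are shares near the background. Hist2h2be, among the 9, passed the filter only through Tg, and Hist1h1b, among the 7, only through WT. An exact permutation test of 2 arrays against 2 cannot give a two-sided p below 0.333. The median log2 fold change, Tg minus WT, was 0.02 over the 35 clustered genes and -0.015 over the 6 variants, against 0.008 over all genes.

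**Figure D1:**
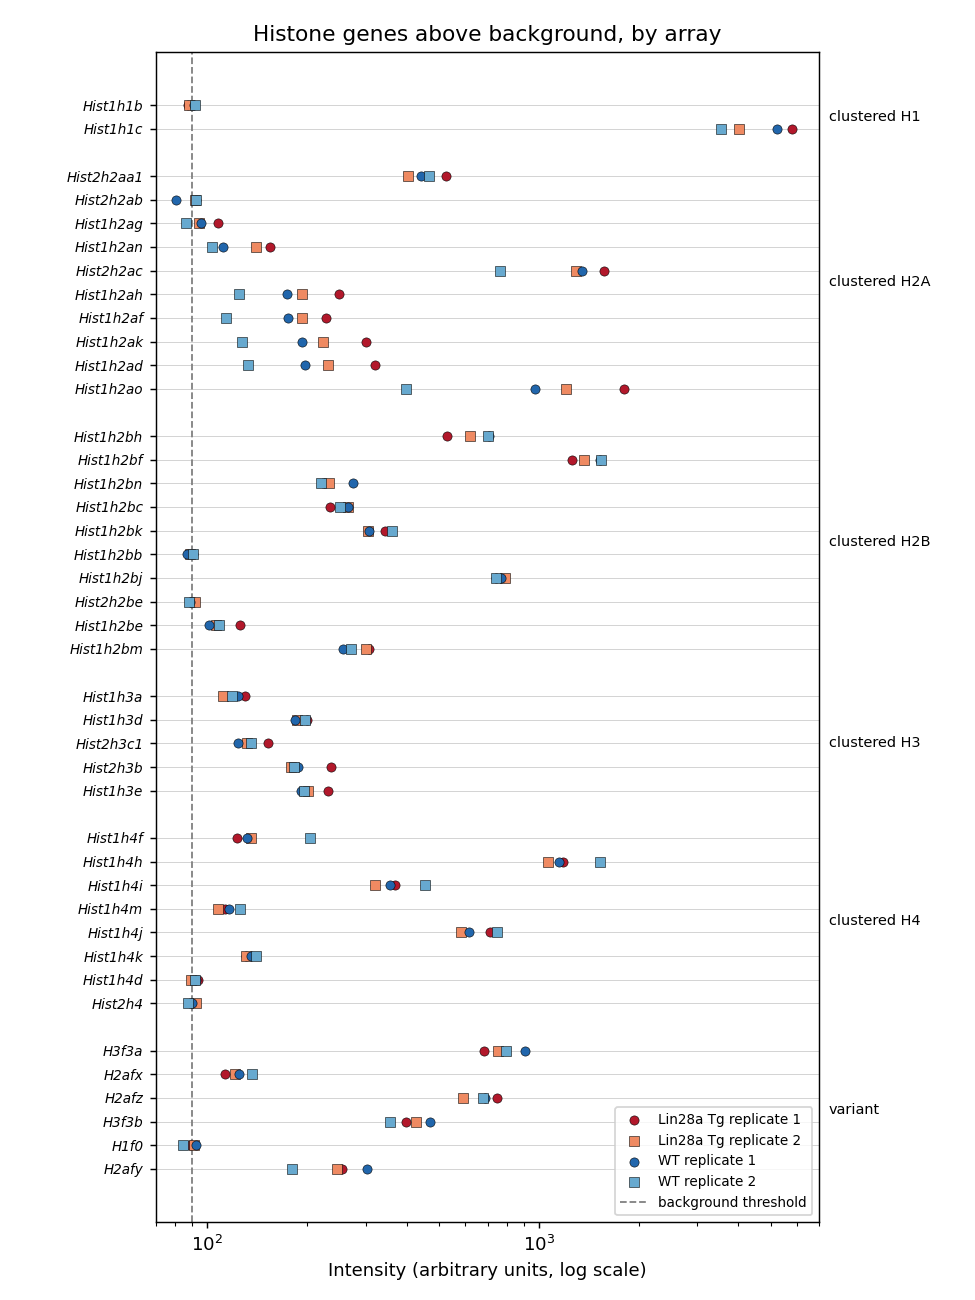
Intensity (log axis) of the 41 histone genes above background on each of the 4 arrays, grouped by histone type, with the background threshold of 90.0 as a dashed line. In 6 H2A genes the Tg arrays lie right of the WT arrays, while for most H2B, H3, H4 and variant genes the 4 points mix.

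The types differed in how their members lay. All 10 tested H2A genes of the clusters had a positive log2 fold change, with a median of 0.53, and 6 of them did not overlap between the groups (21.6% of all genes lay higher without overlap). The 10 H2B genes split into 5 positive and 5 negative (median -0.015), and of the 8 H4 genes 7 were negative (median -0.10). Of the 5 H3 genes 4 were positive (median 0.14). These medians describe the arrays and were not tested, and near-identical copies of a type are not independent of each other.

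**Figure D2:**
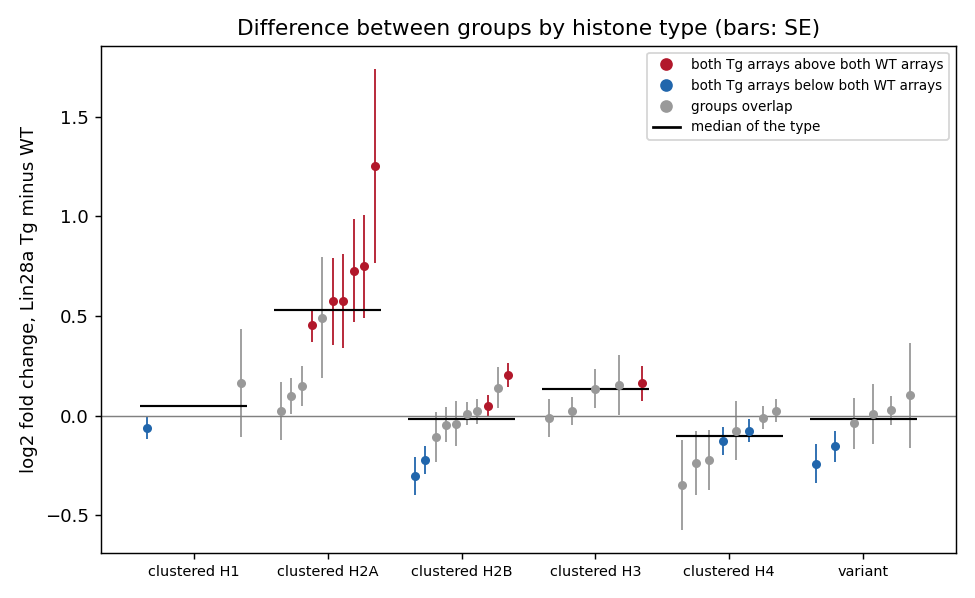
Log2 fold change (Tg minus WT) of each tested histone gene with its SE from limma, by type, with the median of the type as a black line. The H2A genes reach 1.25 with a median of 0.53, and the medians of the other types lie between -0.10 and 0.14.

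H2A pairs with H2B at the nucleosome surface, and its clustered genes gave the largest log2 fold changes of the members. Hist1h2ao read 1812 and 1211 in Tg replicates 1 and 2 and 972 and 398 in WT replicates 1 and 2. The groups did not overlap, but the 2 WT arrays lay farther apart than WT replicate 1 did from Tg replicate 2. The log2 fold change was 1.25 (SE 0.49, limma adjusted p = 0.579), and it was 0.61 without WT replicate 2 and 1.90 without WT replicate 1. Hist1h2ad read 319.5 and 230.9 in Tg and 196.5 and 132.9 in WT, with a log2 fold change of 0.75 (SE 0.26, limma adjusted p = 0.548). Hist1h2ak read 300.1 and 223.7 in Tg and 193.1 and 126.9 in WT, at 0.73 (SE 0.26, limma adjusted p = 0.551). In both genes Tg replicate 1 was the highest array and WT replicate 2 the lowest, and without WT replicate 2 the log2 fold changes were 0.47 and 0.42.

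Hist1h2af read 228.4 and 192.9 in Tg and 174.6 and 113.7 in WT, a log2 fold change of 0.58 (SE 0.23), which was 0.27 without WT replicate 2. Hist1h2ah read 249.1 and 192.7 in Tg and 174.4 and 124.3 in WT, a log2 fold change of 0.57 (SE 0.22), which was 0.33 without WT replicate 2. Hist1h2an differed from these in that its replicates lay close together. It read 154.2 and 139.8 in Tg and 111.4 and 103.2 in WT, a log2 fold change of 0.45 (SE 0.08), and had the smallest p of all members (unadjusted p = 0.0044, limma adjusted p = 0.482). With any 1 array left out its log2 fold change stayed between 0.38 and 0.52. Hist1h2ag overlapped between the groups at 107.8 and 94.1 in Tg and 96 and 86 in WT.

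The H2A genes of the Hist2 cluster overlapped between the groups. Hist2h2ac read 1570 and 1293 in Tg and 1348 and 762 in WT, so that only WT replicate 2 stood apart. Its log2 fold change of 0.49 (SE 0.30) was 0.08 without that array. Hist2h2aa1 read 525.7 and 402.8 in Tg and 439.7 and 467.8 in WT, and Hist2h2ab read 92.7 and 92.0 in Tg and 80.4 and 92.5 in WT, below the threshold on WT replicate 1.

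In some members the arrays fell, from high to low, in the order Tg replicate 1, Tg replicate 2, WT replicate 1, WT replicate 2. It was seen in 6 of the 7 tested H2A genes of the Hist1 cluster and in 0 of the other 34 members. Over all genes it was seen in 6.63%. The order is the one that these H2A genes themselves show, so setting their count beside that share is no test. Their near-identical copies are also not independent of each other. WT replicate 2 was the lowest array in 8 of 10 clustered H2A genes (25.4% of all genes), and Tg replicate 1 the highest in 10 of 10 (29.6%). For H4 genes the picture was turned round: WT replicate 2 was the highest array in 6 of 8 (26.2% of all genes). The median deviation of the H2A genes from their own means, on the log2 scale, was 0.40 and 0.12 on the Tg arrays, -0.05 on WT replicate 1 and -0.56 on WT replicate 2. The median log2 fold change of the 10 H2A genes was 0.85 without WT replicate 1 and 0.30 at the lowest of the 4 fits that each left 1 array out. Background correction with normexp took it to 0.89 and the log2 fold changes of Hist1h2af, Hist1h2ah and Hist1h2an to 0.94, 0.89 and 0.89, and with no filter on dim genes it was 0.15 over all 15 H2A genes.

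**Figure D3:**
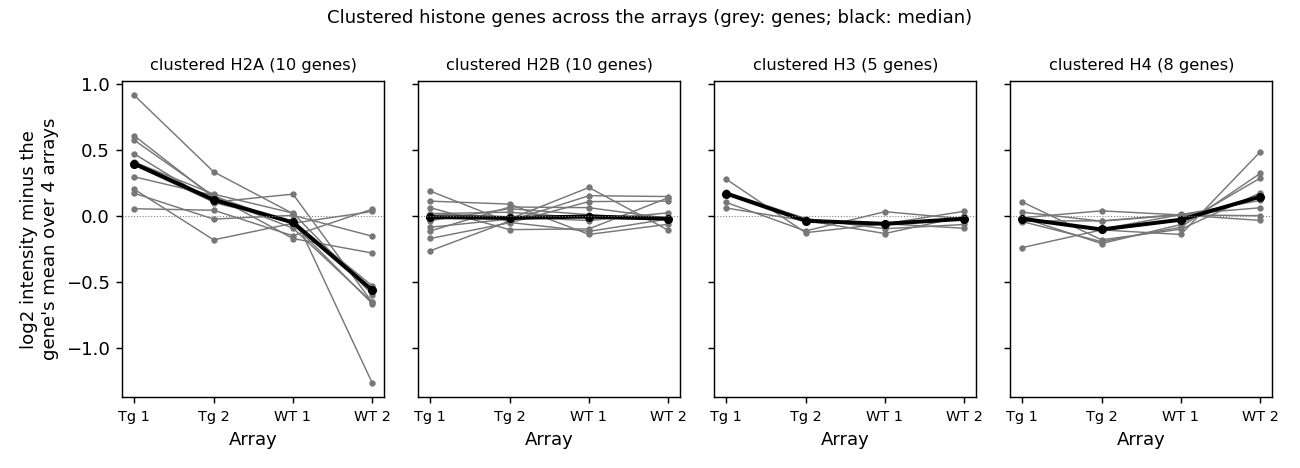
Log2 intensity of each clustered gene minus its own mean over the 4 arrays, for 10 H2A, 10 H2B, 5 H3 and 8 H4 genes, with lines joining the values of 1 gene and the median in black. The H2A median is 0.398 on Tg replicate 1 and -0.564 on WT replicate 2, while the H2B medians lie between -0.020 and -0.004.

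H2B genes split in direction. Hist1h2bf read 1263 and 1372 in Tg and 1534 and 1538 in WT, a log2 fold change of -0.22 (SE 0.07, limma adjusted p = 0.538). Hist1h2bh read 528.3 and 617.8 in Tg and 706.0 and 702.8 in WT, a log2 fold change of -0.30 (SE 0.09, limma adjusted p = 0.538). Both Tg arrays of these 2 genes lay below WT arrays that lay close together, and without Tg replicate 1 the Hist1h2bh value was -0.19. Hist1h2bm read 306.3 and 301.6 in Tg and 257.1 and 271.2 in WT, a log2 fold change of 0.20 (SE 0.06, limma adjusted p = 0.538). Here the groups lay the other way round, also without overlap. Hist2h2be was below the threshold on both WT arrays (88.7 and 88.0) and read 90.9 and 91.6 in Tg, at least 1.01-fold higher, a bound set against the lowest values above the threshold. The other 6 tested H2B genes, Hist1h2bb, Hist1h2bc, Hist1h2be, Hist1h2bj, Hist1h2bk and Hist1h2bn, overlapped between the groups.

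H2A and H2B genes often start back to back from a shared stretch of DNA, which allows a comparison of neighbours. RefSeq starts placed 6 such pairs of members within 1000 bases of each other, 164 to 281 bases apart, and 4 pairs had both genes above background. In all 4 the H2A gene had the higher log2 fold change, and in 3 the signs were opposite. All 10 tested H2A genes of the clusters were positive, so the pairs are not a separate observation. Which copy each probe reads is uncertain. Hist1h2ad, at 0.75, faces Hist1h2bf, at -0.22, and both lacked overlap between the groups in opposite directions. Hist1h2ak, at 0.73, faces Hist1h2bn, at -0.11, whose values of 223.1 and 233.0 in Tg and 275.1 and 219.7 in WT overlapped. Hist1h2ah, at 0.57, faces Hist1h2bk, at -0.04, and Hist1h2ag, at 0.15, faces Hist1h2bj, at 0.02. The stretch printed for Hist1h2ad reaches the start of Hist1h2bf, 174 bases away. In none of the 4 pairs did both genes place the arrays in the same order. The difference within pairs was not tested.

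**Figure D4:**
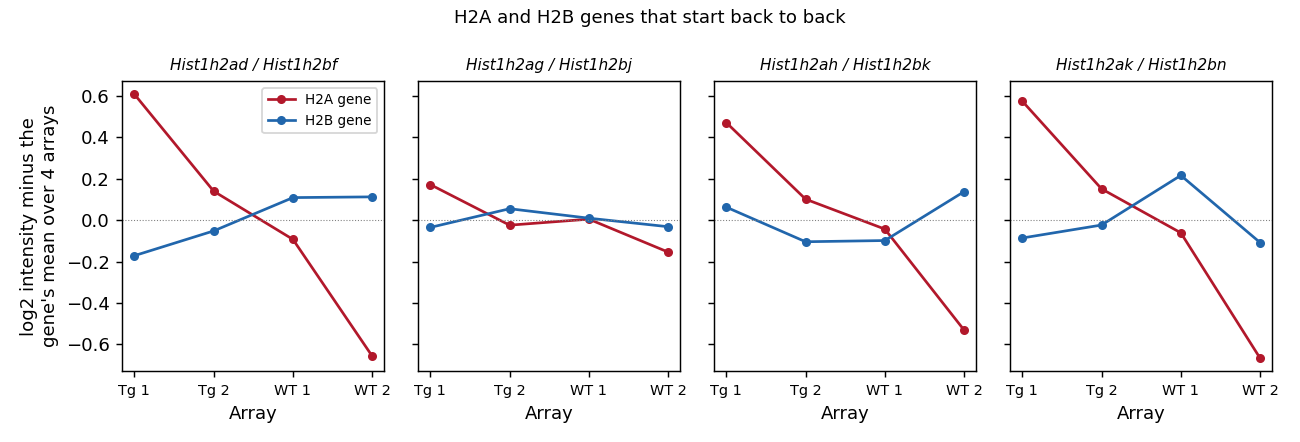
Log2 intensity minus the gene's own mean over the 4 arrays for 4 pairs of H2A (red) and H2B (blue) genes that start back to back, with lines joining the values of 1 gene. All 4 H2A genes are highest on Tg replicate 1 and lowest on WT replicate 2, and none of the 4 H2B genes is highest on Tg replicate 1.

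H3 and H4 form the core tetramer of the nucleosome, and most of their clustered genes overlapped between the groups. Hist1h3e was the 1 H3 gene without overlap, at 231.9 and 201.8 in Tg and 191.3 and 195.6 in WT, a log2 fold change of 0.16 (SE 0.09), which was 0.06 without Tg replicate 1. Hist1h3a, Hist1h3d, Hist2h3b and Hist2h3c1 overlapped between the groups. Tg replicate 1 was the highest array in 5 of 5 H3 genes (29.6% of all genes), and without it the H3 median was -0.02.

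Among H4 genes, Hist1h4m read 113.1 and 107.7 in Tg and 116.1 and 125.2 in WT, a log2 fold change of -0.13 (SE 0.07). Hist1h4k read 130.9 on both Tg arrays and 135.5 and 140.3 in WT, a log2 fold change of -0.07 (SE 0.06). These were the 2 of 8 H4 genes whose groups did not overlap (16.8% of all genes lay lower without overlap). Without WT replicate 2 Hist1h4m was at -0.07, and with normexp Hist1h4m and Hist1h4k were at -0.27 and -0.14. Hist1h4h read 1185 and 1066 in Tg and 1150 and 1526 in WT, a log2 fold change of -0.24 (SE 0.16), which was -0.03 without WT replicate 2. Hist1h4f, with the most negative log2 fold change of the 41 members at -0.35, read 123.1 and 135.1 in Tg and 131.9 and 203.8 in WT. In both genes WT replicate 2 alone stood above the other arrays, as it did for Hist1h4i at 452.9 against 320.9 to 367.7. Hist1h4j, Hist1h4d and Hist2h4 also overlapped. The H4 median of -0.10 was -0.03 without WT replicate 2, -0.20 without WT replicate 1, -0.19 without Tg replicate 1 and -0.19 with normexp.

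Among linker histone genes, Hist1h1c encodes a common somatic H1. It read 5784 and 4019 in Tg and 5235 and 3535 in WT. Replicate 1 was higher than replicate 2 in both groups, and the groups overlapped. The log2 fold change of 0.16 (SE 0.27) ranged from -0.12 to 0.45 when 1 array was left out. Hist1h1b was below the threshold on both Tg arrays (87.5 and 87.9) and read 91.3 and 92.1 in WT, at least 1.02-fold higher in WT. The other 4 clustered H1 genes were not above background on any array.

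Variant histones showed small differences. H3f3a and H3f3b encode the same replacement H3 protein from separate genes. H3f3a read 682.0 and 755.4 in Tg and 906.4 and 793.3 in WT, with no overlap, a log2 fold change of -0.24 (SE 0.10, limma adjusted p = 0.601). H3f3b read 398.3 and 425.5 in Tg and 469.0 and 356.8 in WT, so that both Tg arrays lay between the WT arrays, and its log2 fold change was 0.01 (SE 0.15). The H3f3a value was -0.14 without WT replicate 1, its highest array, and H3f3b was at 0.21 without that array.

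H2afx encodes the variant that is phosphorylated at DNA breaks. It read 113.4 and 121.2 in Tg and 124.6 and 136.5 in WT, with no overlap, a log2 fold change of -0.15 (SE 0.08, limma adjusted p = 0.691). This was -0.09 without WT replicate 2 and -0.30 with normexp. H2afz, which encodes the H2A variant found at many gene starts, read 748.0 and 590.2 in Tg and 686.8 and 678.6 in WT. The Tg arrays lay on either side of the WT arrays, and the log2 fold change was -0.04 (SE 0.13). H2afy encodes macroH2A, a variant of silenced chromatin, and read 255.0 and 245.9 in Tg and 302.5 and 180.0 in WT. Its WT arrays lay on either side of both Tg arrays, and the log2 fold change of 0.10 (SE 0.26) was 0.48 without WT replicate 1 and -0.27 without WT replicate 2. The related genes H2afv and H2afy2 were not analysed here.

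Genes that process, carry or accompany histones were examined as lists chosen with earlier results known. Slbp, which binds the stem-loop of clustered histone mRNAs, was below background on all 4 arrays, at 78.9 to 86.0. Of 12 processing genes on the array, 5 were tested, with 2 higher without overlap (21.6% of all genes), 0 lower (16.8%) and a median log2 fold change of 0.06. Ncbp1, a cap-binding subunit gene, read 136.8 and 144.3 in Tg and 114.0 and 126.6 in WT. Cpsf2, a subunit gene of the cleavage machinery, lay near the threshold at 86.9 to 93.0. It passed the filter only through the Tg arrays, where it read high.

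Of 20 histone chaperone and exchange genes on the array, 16 were tested, with 7 higher (21.6% of all genes) and 1 lower (16.8%) without overlap and a median log2 fold change of 0.07. Supt6h, a chaperone gene of transcription elongation, read 375.5 and 389.1 in Tg and 320.0 and 323.1 in WT, a log2 fold change of 0.25 (SE 0.06, limma adjusted p = 0.507). Hat1, which encodes an acetyltransferase of new H4, read 546.4 and 526.3 in Tg and 429.1 and 478.8 in WT, a log2 fold change of 0.24 (SE 0.08, limma adjusted p = 0.543). Ssrp1, a subunit gene of the FACT complex, was at 0.21, and Rbbp7, which encodes a histone-binding protein of several complexes, at 0.13. Chaf1a, a subunit gene of the replication chaperone CAF-1, was at 0.09, and the histone chaperone genes Nasp and Asf1a were at 0.08 and 0.07. Hira, which encodes a chaperone of the replacement H3, was below the threshold on both Tg arrays (86.4 and 83.4). It read 94.5 and 95 in WT, and so passed the filter only through WT. None of these passed the test.

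Of 23 S phase and proliferation genes on the array, 13 were tested, with 6 higher (21.6% of all genes) and 1 lower (16.8%) without overlap and a median log2 fold change of 0.04. Mcm5, a subunit gene of the replicative helicase, read 130.5 and 124.0 in Tg and 111.8 and 98.5 in WT, a log2 fold change of 0.28 (SE 0.09, limma adjusted p = 0.538). E2f1, a transcription factor gene of S phase entry, read 133.5 and 120.9 in Tg and 109.4 and 107.3 in WT, a log2 fold change of 0.23 (SE 0.07, limma adjusted p = 0.543). Birc5, a gene of mitosis, was at 0.13, and the helicase gene Mcm4 at 0.10. Tyms and Tk1 encode enzymes of thymidine nucleotide synthesis and lay on opposite sides, Tyms at 90.3 to 91.0 in Tg against 88.8 and 89.4 in WT, and Tk1 at 102.1 and 101.6 in Tg against 107.4 and 105.7 in WT. Top2a, a topoisomerase gene of dividing cells, was above the threshold only in Tg, at 93.3 and 94.4. Top2a and Tyms count among the 6, but both passed the filter only through the Tg arrays, where they read high. Pcna, Rrm2, Ccna2, Ccnb1 and Bub1 were below background on all 4 arrays.

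Summed over its 13 tested genes, the S phase list read 1487 and 1408 in Tg and 1372 and 1346 in WT. This is the order of the arrays in 6 H2A genes of the Hist1 cluster. Singly, only Mcm5, E2f1 and Tyms of the tested genes showed that order, and the rest did not. Such sums add unlike probes together with their background, so they do not stand for each gene. The 5 tested processing genes summed to 645.6 and 640.5 in Tg and 642.0 and 598.7 in WT, not in that order. Over all 12 on the array they summed to 1238.9 and 1233.3 in Tg and 1227.0 and 1189.8 in WT, which is that order. Of these 12, however, 7 were below background on all 4 arrays, so that order appears only with background values added. The 16 tested chaperone and exchange genes summed to 6354 and 6377 in Tg and 6174 and 6133 in WT, not in that order. Fibroblast markers, 5 of 5 above background, summed to 8579 and 7905 in Tg and 8065 and 7114 in WT, highest on Tg replicate 1 and lowest on WT replicate 2. Satellite cell markers, 2 of 5 tested, summed over all 5 to 593.4 and 547.6 in Tg and 548.2 and 522.7 in WT. The 2 tested alone summed to 342.8 and 303.3 in Tg and 288.1 and 271.1 in WT, the same order as the S phase list. Vcam1 showed that order singly and Cd34 did not. The defining markers Pax7 and Myf5 were below background on all 4 arrays. Macrophage markers, 7 of 7 tested, summed to 1434 and 1449 in Tg and 1263 and 1351 in WT. Endothelial markers, 5 of 5 tested, summed to 610 and 607 in Tg and 516 and 619 in WT. Erythroid markers, 4 of 5 tested, summed to 27444 and 34530 in Tg and 34381 and 22981 in WT. Almost all of the erythroid sum was Hba-a1, at 26924 and 33637 in Tg and 33637 and 22490 in WT. Of the 5 fibroblast markers, Col1a1 and Thy1 read higher in Tg without overlap, and Pdgfra, Dcn and Lum overlapped. The part of dividing or other cells in the H2A values was not tested.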

How the data were processed

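Total RNA from quadriceps was made into biotinylated cRNA for Illumina arrays, per the labels' protocols. Each deposited row holds linear intensities of 1 symbol; the authors had normalized them between arrays and not subtracted background, as the values show (equal-rank values differ by a median of 0.0916%, the lowest value is 72.8). Which software did so is not given in the sources used here. The 8 value columns of another table match no sample label and were not used; that table's gene IDs named 47 of the 67 members, and symbols or older names the rest. Where rows shared a current symbol, the brightest was kept (17881 genes).

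Background was the mode of log2 intensity (84.8), and the threshold of 90.0 its one-sided 95% point, with an SD of 0.05 taken from values below the mode. Tg was compared with WT on log2 intensity by limma (version 3.58.1, R version 4.3.3; lmFit, then eBayes) with no covariates and Benjamini-Hochberg adjustment over all genes tested, and the fit was tested on simulated data. Dim genes have understated folds, since background remains in the values. The members and lists were chosen with earlier results of these data known. The naming rule gave values on every array for members without overlap, the 6 with the largest differences, the 5 brightest and the H3f3a, H2afz and H2afy pairs; Hist1h4f and other overlapping members with values were named after their values were seen. Alternatives were log2 of intensity plus 16, normexp with an offset of 16, testing all genes, testing those above 92.3 on every array, keeping each row of a gene, the trend and robust options of eBayes, a block for the replicate number, and leaving out each array. Medians by histone type were added after the data were examined.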

Additional observations from a re-analysis of the deposited data

How the results depend on the processing

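No histone gene was called by limma under any alternative, including normexp, no filter, the stricter filter, trend and robust, and the replicate block, and the smallest adjusted p among members ran from 0.461 to 0.933. Over all genes 0 were called in every fit with 4 arrays (700 had an unadjusted p under 0.05 in the reported fit), and 0 to 16 with 1 array left out, the 16 without WT replicate 2. With the replicate number as a block, 9 members instead of 6, and 665 of all genes instead of 700, had an unadjusted p under 0.05. The smallest limma adjusted p among members was then 0.571. Same-numbered samples deviated together at r = 0.0362 over all genes tested. The labels do not say whether the numbers are a pairing, and a low r over all genes cannot exclude it for some of them. The median log2 fold change of clustered H2A genes was 0.149 with no filter and 0.888 with normexp, and that of H2B genes -0.043 under the stricter filter. With 1 array left out, the medians ran from -0.002 to 0.072 for clustered genes, -0.138 to 0.032 for variants, 0.298 to 0.851 for H2A, -0.001 to 0.020 for H2B, -0.024 to 0.239 for H3 and -0.198 to -0.033 for H4. Among the genes named for their groups, size or brightness or as pairs, those that turned direction in these fits were H2afy (-0.273 to 0.476), H2afz (-0.210 to 0.132), H3f3b (-0.188 to 0.206) and Hist1h1c (-0.119 to 0.448); the other tested members were not followed singly. The cause was not tested. Signal close to background limits 26 members, which have no fold here.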
